A study of Canis lupus familiaris with 8 samples.

Results

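The sarcomere and Z-disc genes are 55 genes for the contractile unit of heart and skeletal muscle and for the structures that anchor it. A gene was taken up if at least 1 probe set on the array carried its symbol and no other, and it was then read on its brightest probe set by mean signal over all 8 arrays. In all, 41 of the 55 had such a probe set, out of 6540 genes on the array with a symbol of their own, and together they held 107 probe sets. No probe set carried the symbol of MYH6, MYBPC3, TNNI1, CAPZA2, CAPZB, CSRP3, SYNPO2L, XIRP1, XIRP2, ANKRD2, TRIM54, TRIM55, TRIM63 or SMPX, so these 14 were not measured here. The brightest probe sets of MYH1, MYH2 and LDB3 lay among the dimmest 40% of the array, which were left out of the test, and 38 genes were tested.

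RNA came from the hearts of 8 male dogs of 23 to 27 kg, 1 Affymetrix canine array per dog. The control group held 4 dogs, and the other 4 had chronic hyperhomocysteinemia (HHcy), too much of the amino acid homocysteine in the blood, from methionine given with the water they drank until sampling at 2 weeks. The labels give no breed, age, chamber or treatment of the controls, and each array is taken to be a separate dog. The series asks how chronic HHcy alters gene expression in the heart, and the comparison here asks how the contractile apparatus fared.

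A sarcomere contracts when thick filaments of myosin pull on thin filaments of actin. Calcium binding to the troponin complex moves tropomyosin off the actin and permits that pull, while titin spans the unit as a spring and the Z-disc cross-links thin filaments from neighbouring units. In heart muscle these messages are among the most abundant of the cell, so their level in a piece of tissue follows both the state of the heart muscle cells and how many of them the piece holds.

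HHcy 6 stood apart from the other 7 arrays, and this bears on nearly every value below. The heart muscle markers outside the sarcomere (calcium pump, calcium release channel, fatty acid binding protein and others, 12 of 18 with a probe set) summed to 9674 signal units on HHcy 6, against 102591 to 141767 on the controls and 99981 to 119511 on HHcy 5, 7 and 8. Of these 12, 9 were below every control on HHcy 6, while the dim COX6A2, GJA1 and SLC8A1 were not. The defining markers of heart muscle were low on that array without being at 0: RYR2 read 1559 against 15841 to 26930 on the other 7, and FABP3 1205 against 22222 to 36730. Smooth muscle markers (7 of 9 with a probe set) went the other way and summed to 81011 on HHcy 6, against 3976 to 14601 on the controls and 9519 to 11108 on the other HHcy arrays. Of these 7, 5 were above every control on HHcy 6, among them smooth muscle myosin MYH11 at 20719, against 387 to 2078 on the other 7 arrays, and smooth muscle actin ACTA2 at 28849, against 684 to 3329.

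Fibroblast markers (8 of 12) summed to 80683 on HHcy 6, against 21400 to 33258 on the controls and 34511 to 61268 on the other HHcy arrays. Macrophage markers (11 of 13) summed to 23454 on HHcy 6, against 6936 to 9688 and 12799 to 18047. The ratio of 3' to 5' signal, which rises as RNA degrades, was 0.378 to 2.49 for actin on the controls and reached 15.3 on HHcy 5 and 599.6 on HHcy 6. For GAPDH it was 1.46 to 3.76 on the controls, 17.2 on HHcy 5 and 10.5 on HHcy 6. On HHcy 7 and HHcy 8 the actin ratio was 2.67 and 1.69. Endothelial markers (6 of 12) summed to 21588 to 29367 on the controls, 23095 to 28944 on HHcy 5, 7 and 8 and 32743 on HHcy 6. PECAM1 made up most of that sum, at 30198 on HHcy 6, where VWF (815) and TIE1 (840) were below every control and the median deviation of the 6 markers from their control means was -0.73 log2 units. Adipocyte markers (3 of 8) summed to 399 to 893, 468 to 539 and 2214 in the same order, and epithelial markers (4 of 7) to 125 to 288, 320 to 1283 and 1659. The cardiac label is thus borne out by its markers on 7 arrays and hardly on HHcy 6, and the part of cell makeup in the results below was not tested. In whole tissue, fewer heart muscle cells and less of a message per cell cannot be told apart.

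**Figure D1:**
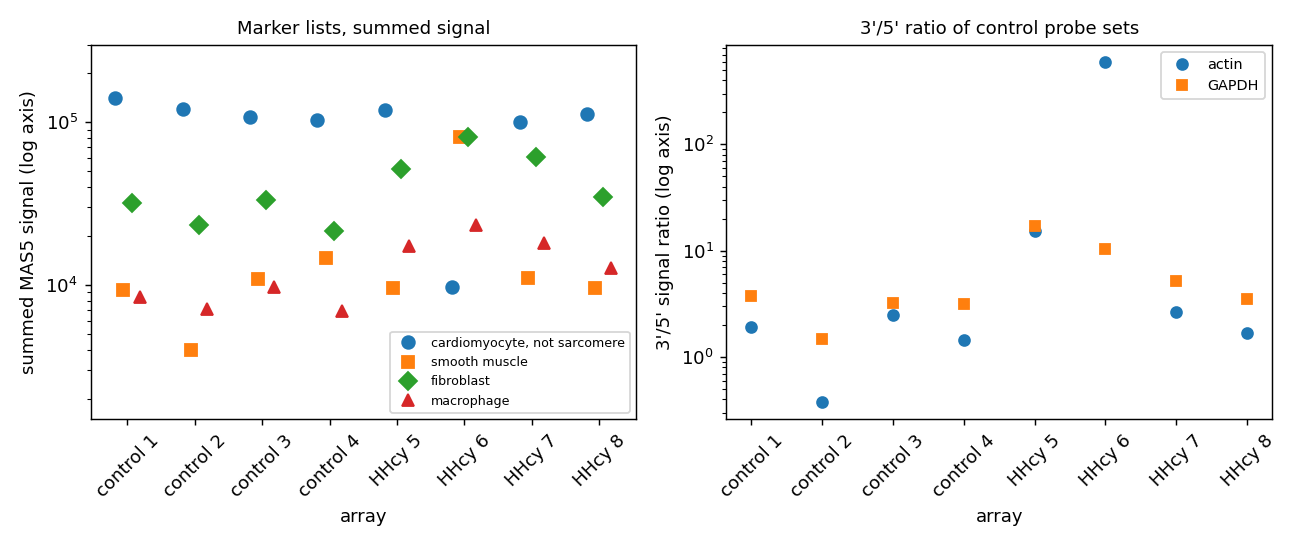
Left, summed MAS5 signal of 4 marker lists on each array (log axis). Right, the 3'/5' signal ratio of the actin and GAPDH control probe sets (log axis). On HHcy 6 the heart muscle markers sum to 9674 and the smooth muscle markers to 81011, and the actin ratio is 599.6.

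No sarcomere or Z-disc gene passed the test between the groups. Signals, on the linear scale of the MAS5 algorithm, were compared as log2(signal + 24) with limma, a linear model that pools the spread over probe sets. With Benjamini-Hochberg adjustment over all 14301 tested probe sets, 0 of the 38 had an adjusted p under 0.05, where 0.0979% of all tested probe sets did, and 0 of the 87 tested probe sets of these genes did. The lowest adjusted p among the 38 was 0.158, for MYL6. At an unadjusted p under 0.05 there were 4 genes, MYL6, NEBL, MYOM2 and ANKRD1, all lower in HHcy. That is 10.5% of the 38, against 17.8% of all tested probe sets in either direction and 5.94% in the lower direction. In MYL6, LMOD2 and FHL2 every HHcy array was below every control, which is 7.89% of the 38, against 11.4% of all tested probe sets in either direction and 3.89% in the lower. Both counts moved with single arrays. The 4 genes became 2 without control 1 (4.65% of all tested probe sets in the lower direction), 2 without control 2 (3.36%), 8 without HHcy 7 (5.52%) and 11 without HHcy 8 (6.63%), all lower. The 3 genes without overlap, all lower, became 9 lower and 1 higher without control 3 (6.54% of all tested probe sets lower and 16.7% in either direction). They became 5 lower without HHcy 5 (5.06% and 14%), 3 lower and 2 higher without HHcy 7 (5.11% and 18.5%) and 8 lower without HHcy 8 (6.66% and 17.9%).

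The log2 fold change, HHcy minus control, was below 0 in 31 of the 38 and below -1 in 17. Over all tested probe sets the shares were 40% and 4.34%. The median of the 38 was -0.91, against 0.15 over all tested probe sets. With quantile scaling the median of the 38 was -0.99, against 0.011 over all tested probe sets. With median scaling it was -1.26, against -0.18. Without HHcy 6 the fold change was below 0 in 22 of the 38 and below -1 in 0, against 42.3% and 3.17% of all tested probe sets, and the median was -0.13 against 0.10. The low median therefore rested on HHcy 6. With the 3'/5' ratio of each array as a covariate, it was 0.35, and 7 of the 38 were below 0.

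Array by array, the median deviation of the 38 genes from their control means on the log2 scale was -3.16 on HHcy 6, -0.20 on HHcy 5, -0.15 on HHcy 7 and -0.0027 on HHcy 8. The controls themselves ran from -0.19 on control 4 to 0.17 on control 2. HHcy 7 and HHcy 8 thus lay inside the control range, HHcy 5 just below it and HHcy 6 far below it. Counted by gene, 32 of the 38 were below the lowest control on HHcy 6, against 23.2% of all tested probe sets. On HHcy 5 there were 15 (20.2% of all tested probe sets), on HHcy 7 there were 13 (21.8%) and on HHcy 8 there were 5 (17.2%). As shares of the 38 these counts are 84.2%, 39.5%, 34.2% and 13.2%, and all 4 arrays were read against the same controls.

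**Figure D2:**
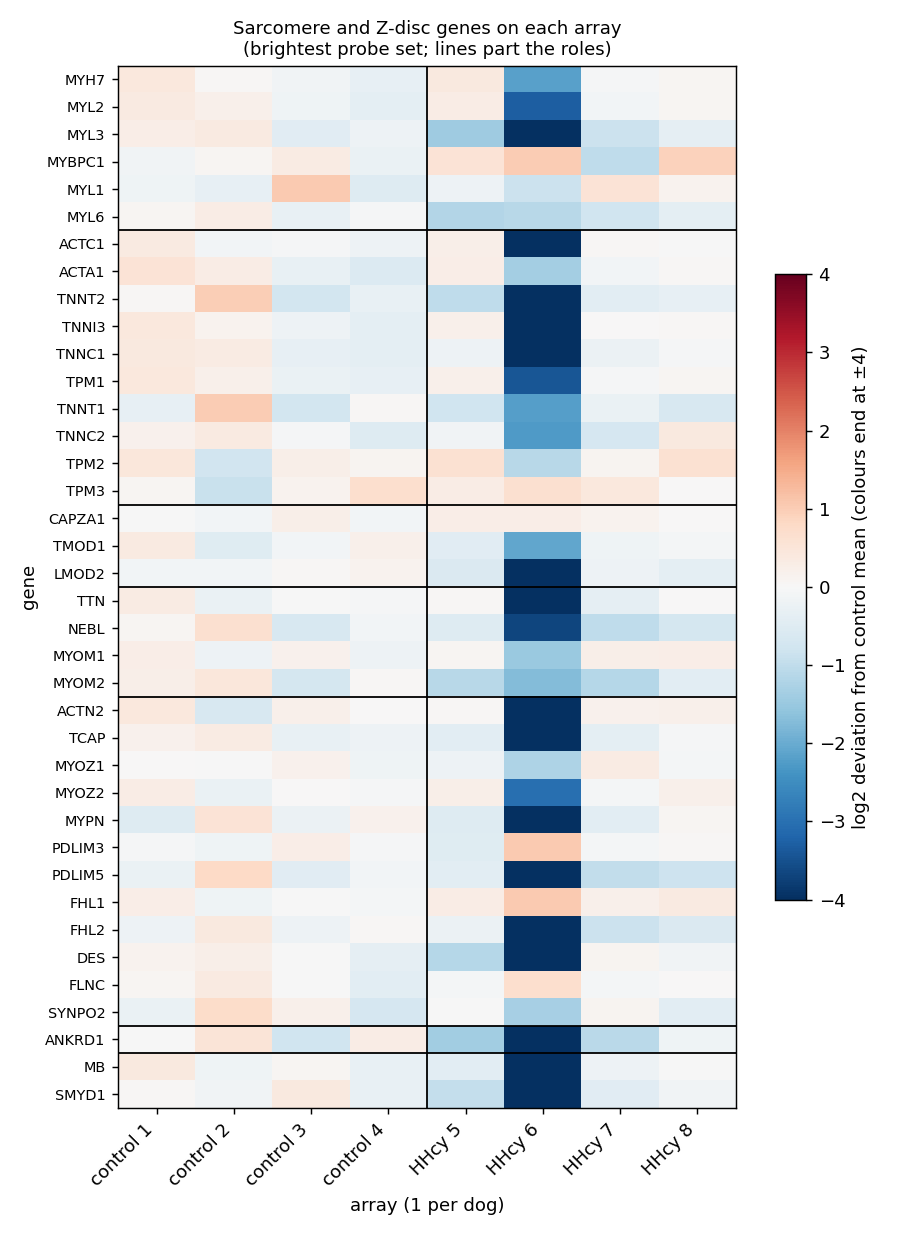
Log2 deviation of each of the 38 tested genes from its control mean on each array, brightest probe set, with roles parted by lines. Colours end at 4 log2 units. The column of HHcy 6 is deep blue for most genes, with FHL1, PDLIM3, FLNC and MYBPC1 above the other 7 arrays.

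The genes were not low on HHcy 6 to the same degree. On that array 31 of the 38 were below each of the other 7 arrays, 16 of them under 10% of the lowest other array. These 16 were MYL3, ACTC1, TNNT2, TNNI3, TNNC1, LMOD2, TTN, ACTN2, TCAP, MYPN, PDLIM5, FHL2, DES, ANKRD1, MB and SMYD1. MYL3, TNNT2, TNNC2, MYPN, PDLIM5, SYNPO2, ANKRD1 and SMYD1 lay among the dimmest 20% of probe sets there, under 35.9 units. Others were nearer to the rest, with skeletal actin ACTA1 at 57.6% and the M-band gene MYOM1 at 41.0% of the lowest other array. MYL6, TPM3 and CAPZA1 lay between the other arrays, and FHL1, PDLIM3, FLNC and MYBPC1 were above each of them.

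**Figure D3:**
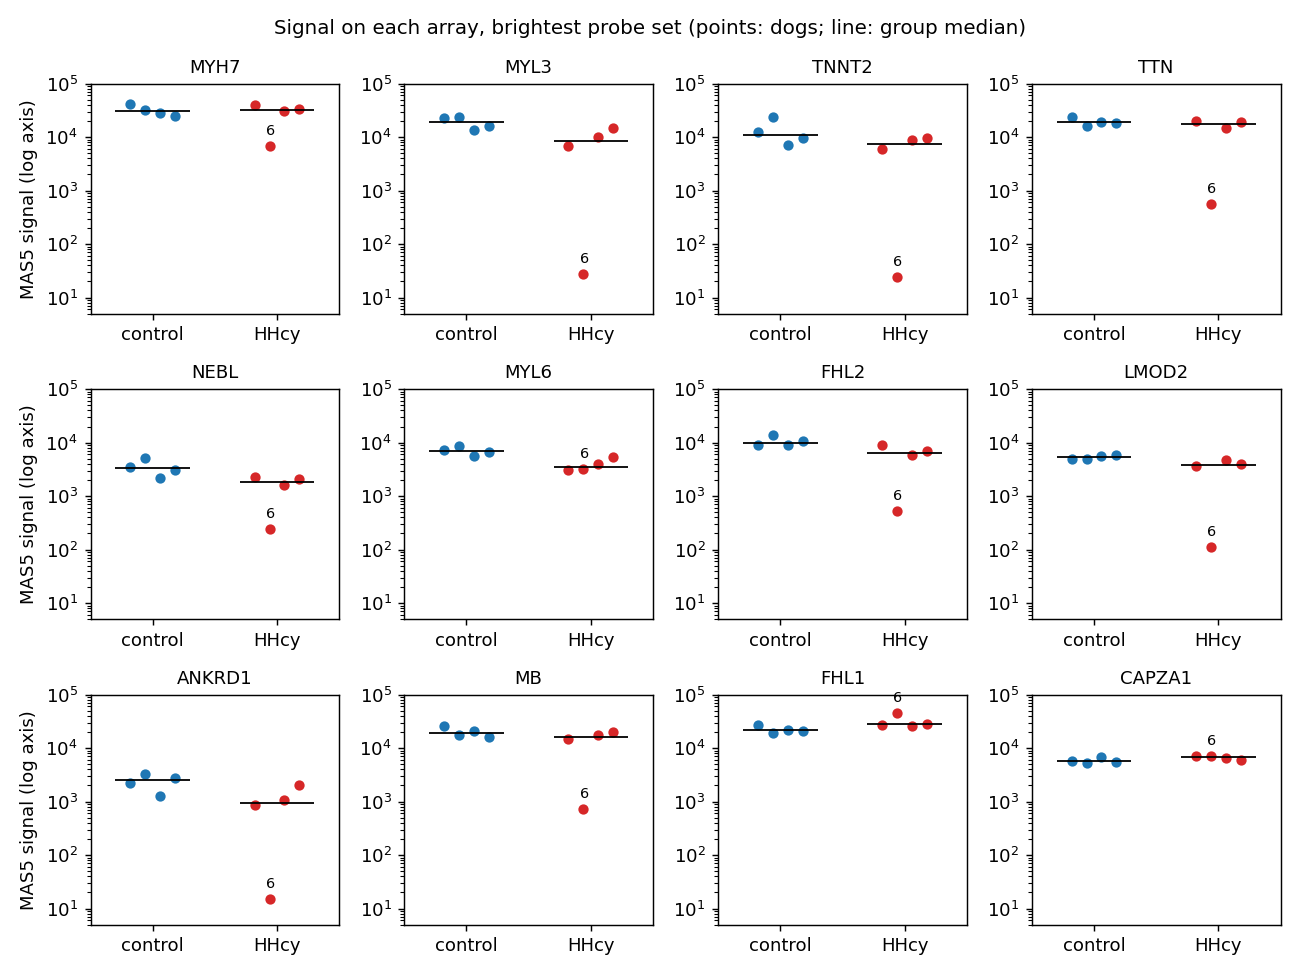
MAS5 signal of 12 genes on each array (log axis), 1 point per dog, with the group median as a line and HHcy 6 marked 6. HHcy 6 is the lowest point by a wide margin for MYH7, MYL3, TNNT2, TTN, NEBL, FHL2, LMOD2, ANKRD1 and MB, and is not apart for MYL6 and CAPZA1.

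Among the thick filament genes, the ventricular light chain MYL3 had the lowest fold change and the non-muscle light chain MYL6 the lowest p. MYL3, the essential light chain that braces the neck of the ventricular myosin head, had signals of 22441, 23836, 13604 and 16144 on controls 1 to 4 and of 6933, 27.4, 10261 and 14579 on HHcy 5 to 8. Only HHcy 8 reached into the control range, and HHcy 5 and HHcy 7 were below it as well as HHcy 6. Its log2 fold change was -2.78 ± 1.40 (SE, limma adjusted p 0.320), and -0.87 ± 0.27 without HHcy 6 (adjusted p 0.210). A dimmer MYL3 probe set had -1.02.

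MYL6 is the essential light chain of smooth muscle and non-muscle myosin. Its signals were 7224, 8463, 5546 and 6615 on the controls and 3038, 3185, 3911 and 5290 in HHcy, so the groups did not overlap and HHcy 6 was not apart from HHcy 5. Control signals averaged 6962 ± 1218 and HHcy signals 3856 ± 1029 (SD, 4 arrays each), giving a log2 fold change of -0.87 ± 0.25 (SE, limma adjusted p 0.158), and of -0.79 ± 0.23 without HHcy 6 (adjusted p 0.194). MYL6 had 11 tested probe sets, of which 10 were lower in HHcy and 8 had an unadjusted p under 0.05. Most are of the kind whose probes can match other transcripts (suffix _x_at), so they can share a target and are not separate evidence.

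MYH7, the slow beta myosin heavy chain that is the motor of the ventricle, had signals of 41458, 32418, 28320 and 24557 on the controls and 40337, 6889, 30226 and 32929 in HHcy. HHcy 5, 7 and 8 lay inside the control range and HHcy 6 below it. Its suffix _s_at means that signal from a near-identical myosin such as MYH6 cannot be split off. MYH7 had a log2 fold change of -0.44 ± 0.48 (SE, limma adjusted p 0.633), and it turned to 0.14 ± 0.20 without HHcy 6. The second brightest MYH7 probe set had 13343 to 20659 on the controls and 9868, 315, 13124 and 14129 in HHcy. HHcy 8 alone was inside its control range, and the log2 fold change was -1.69, or -0.39 without HHcy 6. MYL2, the regulatory light chain of the ventricle, had 45295, 40535, 31266 and 26624 on the controls and 43038, 3542, 32716 and 37132 in HHcy. As on the brightest MYH7 probe set, only HHcy 6 left the control range. The log2 fold change of MYL2 went from -0.76 ± 0.65 to 0.089 ± 0.20 without that array.

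The skeletal muscle genes of the thick filament were dim. MYL1, a fast skeletal light chain, ranged from 144 to 476 on the controls and from 109 to 328 in HHcy, and MYBPC1, slow skeletal myosin binding protein C, from 49.9 to 87.4 and from 19.5 to 155. Both overlapped between the groups, with adjusted p of 0.916 and 0.702. The fast skeletal myosin MYH1 had 36.5, 21.1, 3.40 and 4.22 on the controls and 123, 151, 65.7 and 103 in HHcy on its brightest probe set. These signals did not overlap, although they lay in the dim range left out of the test. With no filter on dim probe sets the log2 fold change was 1.78 (limma adjusted p 0.156), and the other MYH1 probe set had -0.86 (adjusted p 0.382). The fast skeletal myosin MYH2 had a control range of 17.2 to 64.7 and an HHcy range of 62.7 to 149, which overlapped at the edge (log2 fold change 1.21, adjusted p 0.253, with no filter). Other markers of skeletal fibres (8 of 14 with a probe set) summed to 453 to 1040 on the controls, 1064 to 1194 on HHcy 5, 7 and 8 and 1358 on HHcy 6. ATP2A1 was the brightest of the 8 on every array, at 204 to 484 on the controls and 474 to 879 in HHcy. Each of the 8 markers overlapped between the groups, and their part in these values was not tested.

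Among the 10 thin filament genes, 8 had a log2 fold change below 0 and 0 had an unadjusted p under 0.05. The cardiac troponins were low on HHcy 6 and otherwise near the controls. TNNT2, the cardiac troponin T that ties the complex to tropomyosin, had 12425, 23475, 7179 and 9684 on the controls and 5900, 24.5, 8849 and 9450 in HHcy. HHcy 5 was just below the lowest control, HHcy 7 and HHcy 8 were inside the range, and control 2 was well above the rest. Its log2 fold change was -2.43 ± 1.37 (SE, limma adjusted p 0.364), and -0.59 ± 0.34 without HHcy 6 (adjusted p 0.420).

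TNNC1, the calcium-binding troponin C of heart and slow muscle, had 43675, 41516, 26792 and 25492 on the controls and 28871, 989, 28605 and 32488 in HHcy. TNNI3, the inhibitory cardiac troponin I, ran from 20831 to 36542 on the controls and read 31406, 393, 27489 and 28252 in HHcy. For both, HHcy 5, 7 and 8 were inside the control range. Without HHcy 6 their log2 fold changes went from -1.38 to -0.16 for TNNC1 and from -1.43 to 0.097 for TNNI3.

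The actins parted on HHcy 6. Cardiac actin ACTC1 ran from 18971 to 27841 on the controls and read 25671, 1277, 22486 and 21681 in HHcy. Skeletal actin ACTA1, which the adult heart also makes, had 44938, 38565, 25357 and 21175 on the controls and 37357, 12204, 28640 and 32400 in HHcy. On HHcy 6 ACTC1 stood at 6.73% of the lowest other array and ACTA1 at 57.6%. The brightest probe sets of both genes carry the suffix _s_at, given where probes are shared between transcripts, so signal from near-identical actins cannot be split off.

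TPM1, the main tropomyosin of the heart, which also has a smooth muscle form, had 54498, 46970, 33969 and 32352 on the controls and 46666, 3800, 39343 and 43431 in HHcy. Its log2 fold change was -0.80 ± 0.67 (SE, adjusted p 0.530 with limma), and 0.072 ± 0.20 without HHcy 6. TNNT1, the slow skeletal troponin T, had 480, 1243, 356 and 620 on the controls and 338, 113, 499 and 383 in HHcy. HHcy 5 and HHcy 6 were below its control range and the other HHcy arrays inside it (log2 fold change -0.97 ± 0.46, adjusted p 0.294). The fast skeletal TNNC2 ranged from 104 to 208 on the controls and from 13.9 to 213 in HHcy. TPM2, the beta tropomyosin of slow and smooth muscle, ranged from 504 to 1210 and from 394 to 1360, and TPM3, a slow skeletal and non-muscle tropomyosin, from 912 to 2736 and from 1728 to 2674, with fold changes of 0.053 and 0.34.

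At the filament ends, the capping protein subunit CAPZA1 was much alike on all 8 arrays and the leiomodin LMOD2 separated the groups. CAPZA1, which closes the barbed end of actin at the Z-disc and elsewhere in any cell, had 5774, 5382, 6864 and 5466 on the controls and 7079, 7056, 6432 and 5884 in HHcy. The groups overlapped and HHcy 6 was level with HHcy 5. CAPZA1 had a log2 fold change of 0.17 ± 0.21 (SE, limma adjusted p 0.668), and it turned to -0.19 with median scaling.

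LMOD2, which lengthens thin filaments at their pointed end, had 5042, 5028, 5577 and 5946 on the controls and 3635, 112, 4651 and 4069 in HHcy. Each HHcy array was below each control, though not with median scaling. The controls spread by the least of the 38 genes, with an SD of 0.12 log2 units. The fold change was -1.62 ± 0.91 (SE, limma adjusted p 0.363), and without HHcy 6 it was -0.39 ± 0.18, a 1.31-fold lower level (adjusted p 0.341). TMOD1, the tropomodulin that caps the same end, had 5709, 3167, 4095 and 5098 on the controls and 3217, 1016, 3898 and 4162 in HHcy. There only HHcy 6 left the control range, and the log2 fold change of -0.70 ± 0.41 became -0.24 ± 0.23 without it.

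Titin, nebulette and both M-band genes had fold changes below 0, and NEBL and MYOM2 had an unadjusted p under 0.05. TTN, the spring of the sarcomere, had 24207, 16204, 19238 and 18725 on the controls and 20181, 556, 15054 and 19415 in HHcy. HHcy 7 was just below the control range and HHcy 6 far below it. The log2 fold change was -1.34 ± 0.92 (SE, limma adjusted p 0.445), and -0.10 ± 0.19 without HHcy 6. NEBL, the cardiac relative of nebulin at the Z-disc, had 3558, 5236, 2155 and 3110 on the controls and 2321, 239, 1629 and 2067 in HHcy. HHcy 5 alone of the HHcy arrays reached into the control range. Its log2 fold change was -1.48 ± 0.60 (adjusted p 0.240), and -0.75 ± 0.28 without HHcy 6 (adjusted p 0.268). A dimmer NEBL probe set had -0.71, which became -0.065 without HHcy 6.

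MYOM2, an M-band protein of fast fibres and of the adult heart, had 472, 553, 237 and 413 on the controls and 173, 104, 170 and 297 in HHcy. HHcy 8 overlapped control 3, and the others were below every control. Its log2 fold change was -1.09 ± 0.35 (SE, limma adjusted p 0.176), and -0.88 ± 0.34 without HHcy 6 (adjusted p 0.276). MYOM1, which cross-links myosin and titin at the M-band, had 14023, 10106, 13092 and 10145 on the controls and 12406, 4144, 13788 and 14163 in HHcy. The direction of MYOM1 turned from -0.23 ± 0.37 to 0.20 ± 0.18 without HHcy 6.

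Of 12 tested Z-disc and intermediate filament genes, 9 had a fold change below 0 and 0 had an unadjusted p under 0.05. FHL2, a LIM-domain adaptor between titin and signalling proteins, had 8993, 13595, 9051 and 10812 on the controls and 8945, 524, 5753 and 7006 in HHcy. The groups did not overlap, although HHcy 5 lay only just under control 1, and with quantile scaling they did overlap. FHL2 had a log2 fold change of -1.48 ± 0.71 (SE, limma adjusted p 0.296), and -0.55 ± 0.21 without HHcy 6 (adjusted p 0.278).

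PDLIM5, a PDZ and LIM scaffold at the Z-disc, had 2054, 4304, 1796 and 2276 on the controls and 1823, 19.3, 1216 and 1356 in HHcy. HHcy 5 reached the control range and the rest did not (log2 fold change -2.03 ± 0.96, limma adjusted p 0.295, and -0.76 ± 0.30 without HHcy 6, adjusted p 0.282). TCAP, telethonin, which joins the ends of titin at the Z-disc, had 27435, 30311, 19729 and 20907 on the controls and 17920, 1182, 18572 and 23558 in HHcy. HHcy 8 alone was inside the control range. TCAP had a log2 fold change of -1.30 ± 0.76 (limma adjusted p 0.386), and -0.28 ± 0.19 without HHcy 6.

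MYOZ2, a calcineurin-binding protein of slow and cardiac Z-discs, had 24678, 16752, 20594 and 19407 on the controls and 23864, 2457, 19065 and 23225 in HHcy. HHcy 6 was below the control range and the others inside it, and the fold change of -0.66 ± 0.61 turned to 0.12 ± 0.18 without it. The cross-linker alpha-actinin ACTN2, on its brightest probe set also low on HHcy 6 alone, had 9711 to 20378 on the controls and 15544, 513, 17043 and 17433 in HHcy. ACTN2 probe set 2 had 12848 to 20005 on the controls and 11502, 216, 12465 and 13562 in HHcy, so that HHcy 8 alone was inside the control range. Its log2 fold change without HHcy 6 was -0.38. DES, the muscle intermediate filament desmin, ran from 2840 to 4370 on the controls and read 1648, 99.6, 3987 and 3321, so that HHcy 5 was low as well. MYPN, the titin and nebulette ligand myopalladin, ran from 364 to 788 and read 358, 9.07, 390 and 561. On the brightest probe sets the log2 fold changes without HHcy 6 were 0.15 for ACTN2, -0.39 for DES and -0.28 for MYPN.

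FHL1, a LIM-domain protein of striated muscle that is found in other tissues too, was the gene with the highest fold change of the 38. It had 26692, 19524, 21957 and 20833 on the controls and 26874, 45611, 25717 and 28542 in HHcy. HHcy 7 alone reached into the control range, and HHcy 6 was the highest. FHL1 had a log2 fold change of 0.48 ± 0.24 (SE, limma adjusted p 0.326), and 0.29 ± 0.16 without HHcy 6 (adjusted p 0.412). Another bright FHL1 probe set had 0.40, and 0.23 without HHcy 6. The alpha-actinin-binding PDLIM3 ran from 5003 to 6741 on the controls and read 3994, 11571, 5354 and 5827 in HHcy, and filamin FLNC from 80.0 to 153 and from 106 to 196. MYOZ1, the fast-fibre relative of MYOZ2, ran from 185 to 241 and from 76.5 to 273, and the actin-binding SYNPO2 from 55.8 to 185 and from 26.5 to 112. LDB3, a PDZ and LIM protein that binds alpha-actinin, was too dim to be tested, at 20.8 to 90.8 on the controls and 25.3 to 135 in HHcy.

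ANKRD1, the cardiac ankyrin repeat protein that binds titin and is known to respond to stretch, had 2272, 3263, 1296 and 2794 on the controls and 853, 15.1, 1063 and 2014 in HHcy. HHcy 8 lay inside the control range and the other HHcy arrays below it. ANKRD1 had a log2 fold change of -2.13 ± 0.96 (SE, limma adjusted p 0.278), and -0.88 ± 0.35 without HHcy 6, a 1.84-fold lower level (adjusted p 0.286). Myoglobin MB, the oxygen store of heart and slow muscle, had 26068, 17739, 21266 and 16148 on the controls and 14887, 728, 17262 and 19861 in HHcy. HHcy 7 and HHcy 8 were inside its control range, and the fold change went from -1.34 ± 0.84 to -0.21 ± 0.20 without HHcy 6. SMYD1, a muscle methyltransferase needed to assemble myosin, had 2045, 1817, 2645 and 1615 on the controls and 1026, 10.1, 1439 and 1801 in HHcy. Only HHcy 8 was inside the control range (log2 fold change -1.86 ± 1.0, adjusted p 0.344, and -0.52 ± 0.25 without HHcy 6, adjusted p 0.362).

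**Figure D4:**
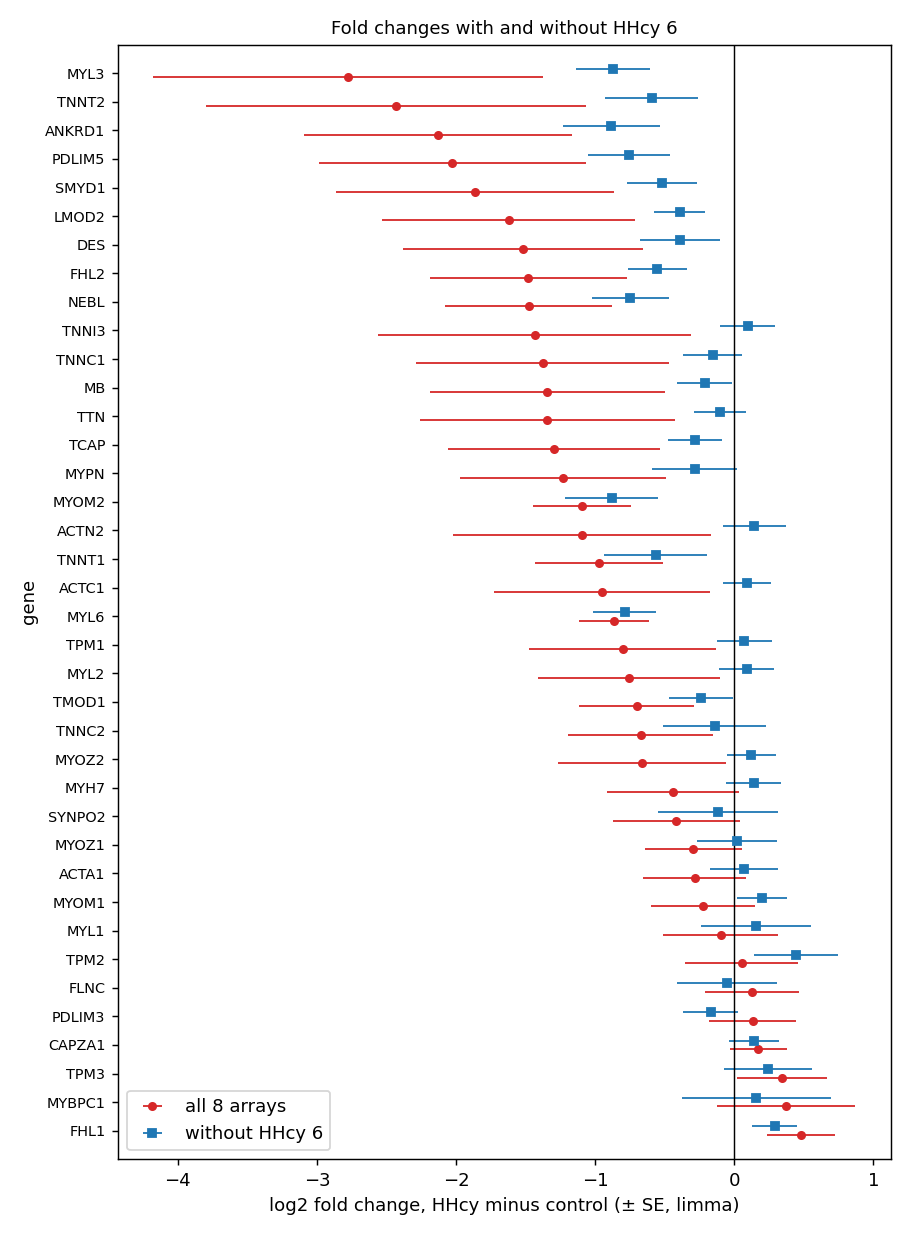
Log2 fold change, HHcy minus control, of the 38 tested genes (± SE, limma), with all 8 arrays in red circles and without HHcy 6 in blue squares. With all arrays 17 genes are below -1; without HHcy 6 none is, and MYL6 and MYOM2 move the least among the genes with an unadjusted p under 0.05.

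Without HHcy 6, 0 of the 38 passed, against 0.126% of all tested probe sets, and the lowest adjusted p was 0.194, again for MYL6. At an unadjusted p under 0.05 there were then 7 genes, MYL3, MYL6, NEBL, MYOM2, PDLIM5, FHL2 and ANKRD1, all lower in HHcy. That is 18.4% of the 38, against 14.8% of all tested probe sets in either direction and 6.27% in the lower. The groups did not overlap in the same 3 genes, against 14.9% of all tested probe sets in either direction and 5.94% in the lower. The fibroblast and macrophage sums of HHcy 5, 7 and 8 were above every control, and their part in these values was not tested. Among the remaining HHcy arrays the spread was of the size of that in controls. The median SD over genes was 0.24 log2 units on HHcy 5, 7 and 8 and 0.35 on the controls, and it was 1.53 on all 4 HHcy arrays. By role, the median log2 fold change of the thick filament genes (6 tested) was -0.60 with all arrays and 0.11 without HHcy 6, that of the thin filament (10 tested) -0.88 and 0.071, that of titin, nebulette and the M-band (4 tested) -1.22 and -0.42, and that of the Z-disc group (12 tested) -0.88 and -0.14.

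Probe sets of the same gene did not always move together. Of 17 tested genes with several tested probe sets, 5 had probe sets of both signs. In MYH7 and ACTN2 some dimmer probe sets were lower on all 4 HHcy arrays, while on the brightest HHcy 6 alone was below the control range. MYH7 probe set 3, counted from the brightest, had 781, 2456, 907 and 1123 on the controls and 92.8, 28.6, 324 and 711 in HHcy. Probe set 4 had 360, 1304, 402 and 552 and 95.3, 68.8, 67.6 and 346. In both every HHcy array was below every control, with log2 fold changes of -2.60 ± 0.69 and -2.10 ± 0.51 (SE, limma adjusted p 0.146 and 0.132), and of -1.96 and -1.90 without HHcy 6. The brightest MYH7 probe set had 0.14 without HHcy 6.

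The dimmer myoglobin probe set had 1537, 4924, 498 and 1683 on the controls and 16.6, 31.3, 243 and 532 in HHcy. It had the lowest adjusted p of the 87 probe sets, 0.121 with limma, and a log2 fold change of -3.58 ± 0.84, or -3.15 without HHcy 6 (adjusted p 0.165). On HHcy 5 it was lower than on HHcy 6, while the brightest MB probe set read 14887 on HHcy 5 and 728 on HHcy 6. ACTN2 probe set 3 had 4289, 8389, 3696 and 5420 on the controls and 1805, 96.9, 2848 and 3392 in HHcy, with no overlap and a log2 fold change of -2.10, or -0.99 without HHcy 6. PDLIM5 probe sets 2 and 3 had no overlap either, at 530 to 1191 against 379 to 421 and at 309 to 810 against 135 to 282, with log2 fold changes of -0.90 and -1.13. Control 2, which had the lowest 3'/5' ratios of the 8 arrays, had the highest signal on all 6 of these MYH7, MB, ACTN2 and PDLIM5 probe sets. HHcy 5 and HHcy 6, with the highest ratios, were the lowest pair on 3 of them, MYH7 probe set 3 and those of MB and ACTN2. The part of that ratio in these differences was not tested. Of 16 tested TTN probe sets, 5 had an unadjusted p under 0.05, all lower, and their fold changes ran from -1.92 to 0.46.

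The tropomyosins had probe sets that went opposite ways on HHcy 6. TPM1 probe set 2 had 6991 to 9439 on the controls and 8629, 26757, 10480 and 7527 in HHcy, against 3800 for the brightest on HHcy 6. TPM2 probe set 2 had 449, 219, 295 and 422 on the controls and 526, 2731, 661 and 655 in HHcy. There every HHcy array was above every control, with a log2 fold change of 1.36 ± 0.47 (SE, limma adjusted p 0.194), and of 0.83 ± 0.29 without HHcy 6 (adjusted p 0.254). ACTA1 probe set 4 also lay higher on every HHcy array, at 749 to 943 against 416 to 586. Its log2 fold change was 0.70 ± 0.23 (limma adjusted p 0.182), or 0.77 ± 0.23 without HHcy 6 (adjusted p 0.206). ACTA1 probe set 3 overlapped between the groups, at 238 to 3192 on the controls and 110 to 3625 in HHcy. It had a log2 fold change of 0.41, or 1.48 without HHcy 6. The smooth muscle marker sums lay within the control range on HHcy 5, 7 and 8, and their part in these values was not tested.

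**Figure D5:**
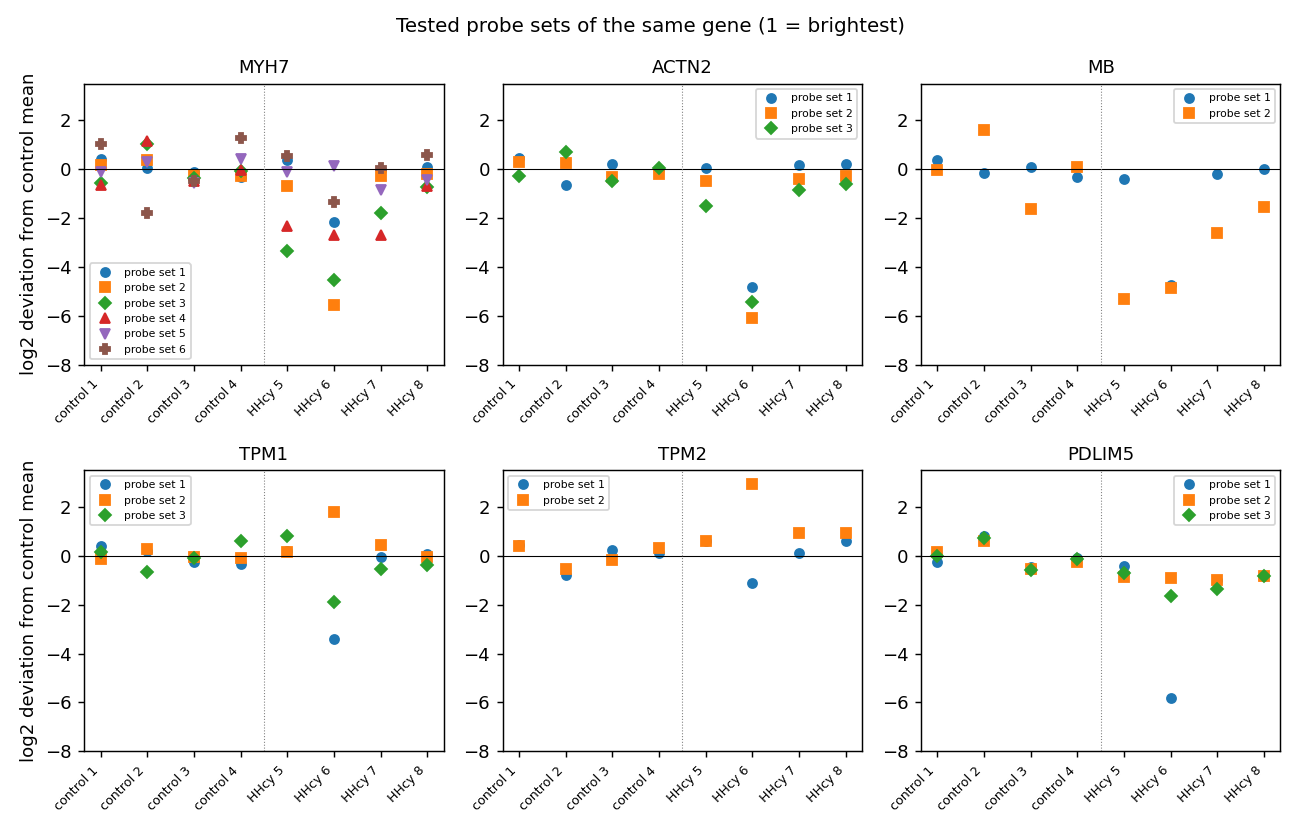
Log2 deviation from the control mean on each array for the tested probe sets of MYH7, ACTN2, MB, TPM1, TPM2 and PDLIM5, numbered by brightness. Dimmer probe sets of MYH7 and MB lie far below the brightest on HHcy 5, and probe set 2 of TPM1 and of TPM2 is high on HHcy 6.

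Other genes of the myofibril and its attachment to the membrane, 74 in a list kept apart from the 55, were read the same way. Of these, 40 had a probe set and 35 were tested, and 0 passed in either direction. At an unadjusted p under 0.05, 9 were lower (MYL7, NEXN, HSPB6, LIMS1, DMD, SGCA, FSD2, MEF2C and MYOCD) and 1 was higher, the smooth muscle myosin kinase MYLK. That is 25.7% of the 35 lower and 2.86% higher, against 5.94% and 11.9% of all tested probe sets. Without HHcy 6 the counts were 7 lower, 20.6% of 34 tested, and 0 higher, against 6.27% and 8.5%. DMD, dystrophin, which links the outermost actin to the membrane, had 9051, 13965, 8601 and 8914 on the controls and 4839, 5724, 5249 and 6021 in HHcy. The groups did not overlap and HHcy 6 was level with the other HHcy arrays. The log2 fold change was -0.86 ± 0.23 (SE, limma adjusted p 0.148), and -0.89 without HHcy 6 (adjusted p 0.135). The mean over all DMD probe sets, taken before dim ones were dropped, had 0.024, so this was not shared by all of them.

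NEXN, nexilin, a Z-disc actin-binding protein, had 1677, 1525, 1608 and 1777 on the controls and 902, 460, 945 and 1086 in HHcy. Here too no HHcy array reached the controls (log2 fold change -1.0 ± 0.28, limma adjusted p 0.151, and -0.74 without HHcy 6, adjusted p 0.178). LIMS1, an adaptor of integrin adhesions, had 641 to 980 on the controls and 298, 217, 530 and 659 in HHcy, and -1.01 ± 0.35 (adjusted p 0.193). MYL7, the atrial regulatory light chain, had 3682, 8411, 1412 and 2415 on the controls and 810, 38.0, 712 and 1999 in HHcy, with HHcy 8 inside the control range (log2 fold change -2.62 ± 0.89, limma adjusted p 0.192, and -1.59 without HHcy 6). Atrial markers (7 of 9 with a probe set) summed to 13076 to 24793 on the controls, 9428 to 12490 on HHcy 5, 7 and 8 and 10268 on HHcy 6. MYL7 is itself among these 7, so the sums are not separate from its own values. The 7 did not move together. PAM, the brightest on every array, had 7365 to 10448 on the controls and 4889 to 5885 in HHcy. KCNA5 was also lower on every HHcy array (1152 to 2165 against 488 to 1114). NR2F1 was higher on every HHcy array (150 to 209 against 244 to 2671), and GJA5, MYL4, MYL7 and NR2F2 overlapped between the groups. The part of the other atrial markers in the MYL7 values was not tested.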

How the data were processed

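Heart RNA of 8 dogs was measured on 8 arrays. The values deposited by the authors are linear intensities per probe set; the submitters' processing notes name MAS5, without a version. All arrays had a trimmed mean of 500.08 to 500.1 units (2% off each end), so no scaling was added in the main analysis. The array medians still differed, from 88.5 on control 4 to 163.5 on HHcy 6. Groups follow the sample titles.

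Symbols came from the platform annotation, where 10549 probe sets had 1 symbol, 138 several and 13226 none; 10046 of the first matched a RefSeq gene by identifier (UU_Cfam_GSD_1.0). A pseudocount of 24, the 20th percentile of the table, was added before log2, which understates fold changes of dim genes. Control probe sets (77) and the dimmest 40% by mean log2 value were dropped, and the remaining 14301 were fitted with limma 3.58.1 in R 4.3.3 (lmFit, then eBayes with trend), tested on simulated data first. P-values were adjusted over all 14301 by Benjamini-Hochberg, with 0.05 as threshold. Errors beside fold changes are SE.

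The 55 genes, the further list and the marker lists were chosen with earlier results of these data known. By rule, signals on every array were given for the 3 brightest genes and the 3 of lowest p in each role and the 4 of lowest p in the further list; others were added after their values were seen. With 4 arrays a group precision is low, and p-values set the group difference against the spread between these arrays, pooled over probe sets. Alternatives were quantile and median scaling, pseudocounts of 6 and 96, no filter, the dimmest 60% dropped, no trend, array weights, gene means over probe sets, leaving out each array or HHcy 5 with HHcy 6, and the 3'/5' ratio as covariate.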

Additional observations from a re-analysis of the deposited data

Results flagged for a closer look

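In 21 of the 38 genes HHcy 6 lay apart from the other 3 HHcy arrays by more than Dixon's 95% limit for groups of 4, on the log2 scale. The measure is the gap from the extreme array to the next, as a share of the group's range. It was highest for TNNI3 (0.969), ACTN2 (0.967) and TNNC1 (0.963), followed by ACTC1 (0.943), TPM1 (0.932), LMOD2 (0.931), TTN (0.918), MB (0.912), TNNT2 (0.911), TCAP (0.908) and MYOZ2 (0.901). It was 0.894 for PDLIM5, 0.892 for MYOM1, 0.890 for MYL2, 0.869 for MYL3, 0.861 for SMYD1, 0.853 for FLNC, 0.851 for MYPN, 0.843 for FHL2, 0.840 for NEBL and 0.837 for MYH7. HHcy 6 was the lowest array in each of these but FLNC, where it was the highest. The median of the 38 genes gave 0.937 on the same array. Of 78 groups looked at, 22 were past the limit, all 22 on HHcy 6 and 0 among the controls, where chance gives about 1 in 20 groups; genes of 1 array are not independent of each other.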

How the results depend on the processing

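No gene of the 38 and none of the 35 further myofibril genes had an adjusted p under 0.05 with limma under any of the 19 alternatives, and in the main analysis 4 and 10 of them had an unadjusted p under 0.05. The number of all tested probe sets that passed was 14. It was 7 with quantile scaling, 22 with median scaling, 9 with the dimmest 60% dropped, 76 with array weights, 8 with gene means, 5 without HHcy 5 and HHcy 6, 5 with the 3'/5' covariate, and 3 to 31 leaving out 1 array. The 4 genes with an unadjusted p under 0.05 became 7 with median scaling, 9 of 41 with no filter, 2 with array weights, 0 with the covariate, and 2 to 11 leaving out 1 array. Over all tested probe sets the share was 17.8% in the main analysis and then 18.2%, 14.7%, 18.1%, 5.48% and 13.4% to 18.7%. The 3 genes whose groups did not overlap became 9 with median scaling, all lower, 6 of 36 with gene means, 5 without HHcy 5 and HHcy 6, and 3 to 10 leaving out 1 array. Over all tested probe sets the share was 11.4% in the main analysis and then 12.4% (9.29% lower), 12% (genes), 20.6% and 14% to 18.5%. With quantile scaling there were again 3, MYL3, MYL6 and LMOD2, all lower, against 11.1% of all tested probe sets (5.49% lower). FHL2 was thus lost with quantile scaling, and LMOD2 was not among the 9 with median scaling.

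The median log2 fold change of -0.91 became -1.26 with median scaling, -0.23 with array weights, -0.075 without HHcy 5 and HHcy 6, 0.35 with the covariate, and -1.10 to -0.13 leaving out 1 array. Of 532 fold changes of single genes under the alternatives, 36 turned sign. With the covariate, on which HHcy 5 and HHcy 6 are extreme, these were MYH7 (0.42), MYL2 (0.58), MYL3 (0.59), ACTA1 (0.29), TNNT2 (0.92), TNNC1 (0.68), TPM1 (0.61), TNNT1 (0.018), TMOD1 (0.013), LMOD2 (0.39), TTN (0.55), MYOM1 (0.43), TCAP (0.48), MYOZ2 (0.50), PDLIM5 (0.13), FHL2 (0.017), ANKRD1 (0.24), MB (0.50) and SMYD1 (0.41). Leaving out 1 array gave a range of -0.71 to 0.14 for MYH7, -1.11 to 0.089 for MYL2, -0.47 to 0.070 for ACTA1, -1.13 to 0.072 for TPM1, -0.39 to 0.20 for MYOM1 and -0.97 to 0.12 for MYOZ2, each above 0 without HHcy 6 alone. Without HHcy 5 and HHcy 6, MYH7 (0.021), TPM1 (0.013), MYOM1 (0.25) and MYOZ2 (0.062) turned. With array weights MYH7 (0.050), ACTA1 (0.12) and MYOM1 (0.084) turned. Gene means turned ACTA1 (0.16), CAPZA1 (-0.012) and DMD (0.024), and median scaling CAPZA1 (-0.19). The cause was not tested, beyond the arrays left out. No paired analysis was possible because the controls are numbered 1 to 4 and the HHcy dogs 5 to 8. Dim probe sets lie near the background of the array, where fold changes have little precision. On HHcy 6 the same goes for the 8 tested sarcomere and Z-disc genes among the dimmest 20% of its probe sets. Other heart muscle genes were well above the median of that array (163.5) on their brightest probe set, such as MYH7 at 6889 and MYOM1 at 4144. The second brightest MYH7 probe set read 315 there.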
